A study of Homo sapiens with 6 samples.

Results

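The axon guidance ligands and receptors examined here are 72 protein-coding genes of the 60655 genes in the count table. They were chosen by gene name to cover the netrins and netrin-Gs with the netrin receptors *DCC*, *NEO1* and *UNC5A* to *UNC5D*, the semaphorins with their plexin and neuropilin receptors, the slits with the ROBO receptors, and the ephrins with the Eph receptors. The set was drawn up around *UNC5A*, picked because it was already known to be enriched in these libraries, so the values of *UNC5A* are given as a description. The other 71 genes entered through their names, but the families were chosen with earlier results of these data known, and 44 of the 72 had enough counts to be tested.

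The libraries came from WaGa, an established Merkel cell carcinoma (MCC) cell line of wild-type genotype that received no treatment. RNA immunoprecipitation (IP) followed by sequencing compared RNA pulled down with an antibody against IGF2BP3, called IMP3 in the sample titles, with RNA pulled down by IgG as the negative control, in 3 libraries each. The sample description calls the replicates independent without saying what was repeated, so the p-values measure the spread between these libraries. All values describe RNA recovered in an IP from 1 cell line, and no input RNA was used here, so a high level in both IPs cannot be told apart from an abundant transcript.

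Guidance cues steer growing axons and migrating cells by binding receptors that act on the actin and microtubule skeleton. Netrins attract through DCC and repel through UNC5 receptors, and UNC5 receptors, DCC and neogenin are also known as dependence receptors, which signal cell death when their ligand is absent. Slits repel through ROBO receptors, semaphorins act through plexins with neuropilins as co-receptors, and ephrins on one cell signal with Eph receptors on the next in both directions. IGF2BP3 is an RNA-binding protein with KH and RRM domains that is known to bind CA-rich elements in mRNA.

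For the 5 genes that passed the thresholds in at least one of the edgeR fits below, a stretch of 30 bases of the canonical transcript is shown, taken from the windows of that length with the most matches to the CA-rich word ACACA. Where windows tied, the first run of neighbouring ones from the start of the transcript was used, and its middle window is shown. The place of a stretch thus follows from that rule. Over the whole transcript *SEMA5A* holds 16 matches and *PLXND1* 11. Each stretch is read in the direction of the transcript on GRCh38, and capitals mark matches to ACACA, overlapping matches merged. That of *UNC5A* lies in the 3′ UTR at chr5:176880216-176880245 on the plus strand, and that of *UNC5C* in the 3′ UTR at chr4:95166794-95166823 on the minus strand. *SEMA4B* is shown from coding sequence at chr15:90217471-90217500 on the plus strand, *PLXND1* from coding sequence at chr3:129589377-129589406 on the minus strand, and *SEMA5A* from the 5′ UTR at chr5:9379989-9380018 on the minus strand.
UNC5A: catACACAcggccatgcacgcACACActgg
UNC5C: acgcagttatACACACACAttttttaaaag
SEMA4B: gctgaACACAtctccaactACACAgccctt
PLXND1: gcgtcaacaactACACAgcggtcttcctgg
SEMA5A: ttccACACAtgaggagaagaagagcttctg
The *UNC5C* stretch holds 3 overlapping matches, those of *UNC5A* and *SEMA4B* hold 2, and those of *PLXND1* and *SEMA5A* hold 1. Over the canonical transcripts of all tested genes, 2.72% of windows of this length held at least 1 match and 0.305% held 2 or more. These shares cover all windows, while the stretches shown were picked for the most matches in a whole transcript. The shares therefore do not say whether the stretches are rare. The word was searched on the transcript strand only, and a match is a description of the letters. It occurred in 41 of the 44 tested members, *EFNA3*, *SEMA4C* and *SEMA6C* being the exceptions, and in 84.2% of all tested transcripts. The median density was 1.21 matches per kb in the members and 1.0 per kb over all tested transcripts, with 2.68 per kb in *UNC5A* and 1.35 per kb in *UNC5C*. *SEMA3E*, at 3.02 per kb, and *ROBO2*, at 2.0 per kb, also lay above the median, and their levels in the 2 IPs are given below.

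The filter asked for enough counts in at least 3 libraries, so a gene could pass it through 1 IP alone. The 28 members that were not tested had at most 16 counts in any library, the highest in *EPHA4*. *EPHA4*, *SEMA3B* and *NRP2* were the only ones with more than 10 counts in a library, and the highest deposited TPM among the 28 was 1.11. *EPHA8*, *NTNG1*, *SEMA3D* and *ROBO4* had no count in any library, which allows up to 3 counts per library, or 0.202 to 0.307 CPM (counts scaled to a common library size), counting error only. Of the Eph receptors 9 of 14 fell below the filter, against 1 of 8 ephrin ligands, *EFNA2*. *UNC5D*, *NRP2*, *PLXNA4*, *PLXNC1*, *SLIT3* and both netrin-Gs were also below it.

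Levels per transcript length were compared as the deposited TPM, in which read numbers are divided by transcript length and scaled to the same total in each library, shown for the tested members in the plot of TPM by library. The highest mean TPM over the 6 libraries were those of *SEMA3E*, a secreted semaphorin (31.0, range 18.97 to 40.45), *EFNA3*, a membrane-anchored ephrin (29.9), the slit receptor *ROBO2* (26.9) and the ephrin *EFNA1* (23.4). *NRP1*, *SLIT2*, *EFNA5* and *ROBO1* followed at 18.5, 17.5, 14.8 and 12.6, and *UNC5A* ranked 12 of 72 at 7.09. The ranges of *SEMA3E*, *EFNA3*, *ROBO2* and *EFNA1* overlapped, so their order was not beyond the spread between libraries. The TPM of *EFNA3* is uncertain because the annotated readthrough gene *EFNA4-EFNA3* shares 853 exonic bases with it on the same strand. By CPM, which are not per length, *EFNA3* stood at 5.85 to 8.61.

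**Figure D1:**
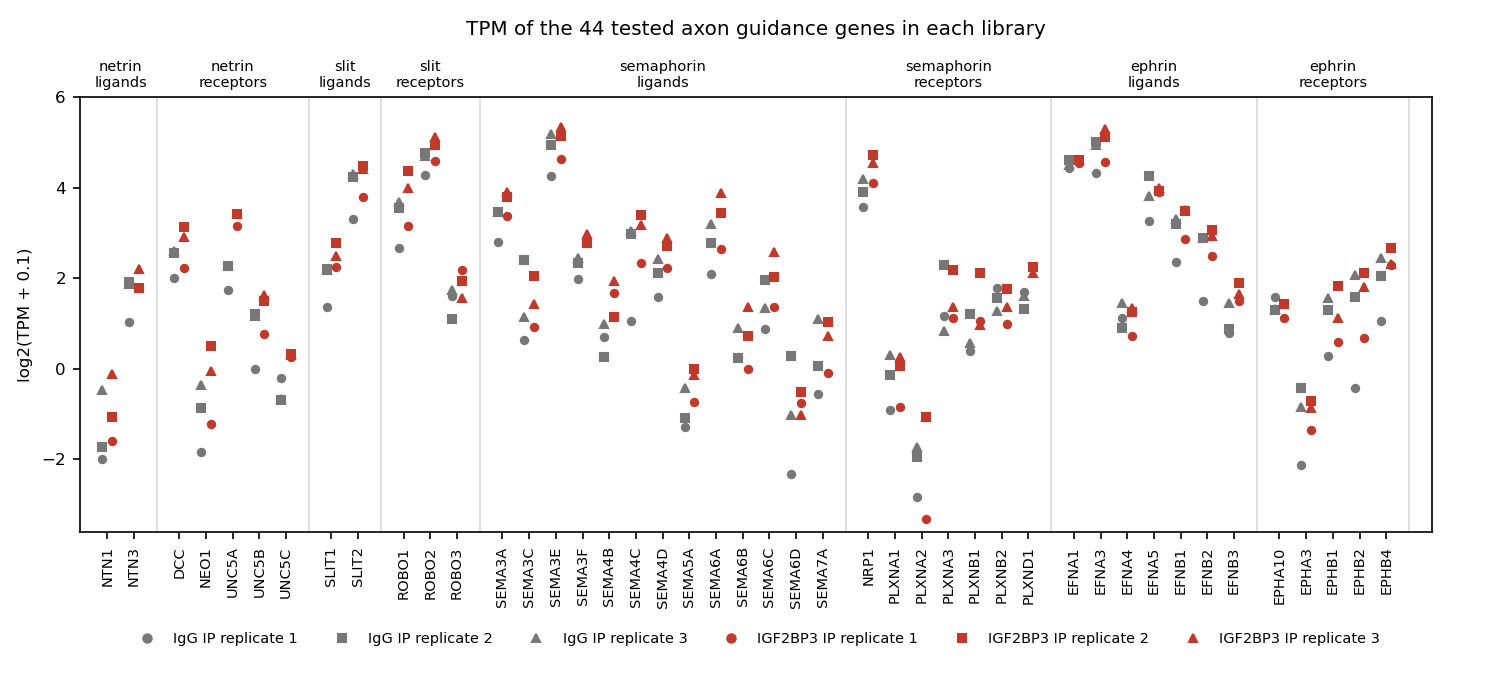
Deposited TPM of the 44 tested axon guidance genes on a log2(TPM + 0.1) axis, grouped by system and role, with 1 point per library (grey, IgG IP; red, IGF2BP3 IP; circle, square and triangle for replicates 1, 2 and 3). *SEMA3E*, *EFNA3*, *ROBO2* and *EFNA1* have the highest mean TPM in both IPs, though *NRP1* lies above *EFNA1* in IGF2BP3 IP replicate 2. The replicate 1 points often lie lowest.

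Ligands and receptors of a system were not always found at like levels. Among the ephrin-A ligands *EFNA1* and *EFNA5* each averaged above 14 TPM, as did *EFNA3*, whose TPM is uncertain. The other ephrin-A ligands were low, *EFNA4* with a mean of 2.12 TPM and *EFNA2*, below the filter, with 0.167 TPM. Of the EPHA receptors only *EPHA10* and *EPHA3* passed the filter, with at most 2.88 TPM and 0.65 TPM in any library. In the netrin system no such order was seen. The ligand *NTN3*, at 1.96 to 4.49 TPM, overlapped *DCC* (3.9 to 8.61 TPM) and *UNC5A* (3.24 to 10.57 TPM) and averaged above *UNC5B*, *UNC5C* and *NEO1* (3.4 against 2.09, 0.867 and 0.635 TPM), while *NTN1* stayed at or below 0.82 TPM. In the slit system both sides were present, with *SLIT2* at 9.77 to 22.26 TPM and *ROBO2* at 19.2 to 34.35 TPM.

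Libraries of replicate 1 stood apart from the others in both IPs. The members together had 190.5, 298.1 and 304.4 TPM in IgG IP replicates 1, 2 and 3 and 261.8, 374.9 and 375.1 TPM in the IGF2BP3 IP. The noncoding RNA *RN7SK* took 10.5% and 10.1% of all TPM in the 2 replicate 1 libraries and 3.74% to 5.95% in the others. Normalized CPM (TMM) summed over the members came to 795.0, 909.4 and 948.0 for the IgG IP libraries and to 948.8, 1100.6 and 1047.4 for those of the IGF2BP3 IP. Without *UNC5A*, the gene the set was picked on, the sums were 780.9, 894.8 and 933.8 CPM against 916.6, 1071.1 and 1017.3 CPM, so that the IPs overlapped. Library totals ran from 9758759 to 14886414 counts. Of 9 MCC markers all were tested, with *KRT20*, the diagnostic keratin, at 430.4 to 633.07 TPM; summed, they were at 1731.4 to 2709.8 TPM in the IgG IP and 2020.0 to 2782.3 TPM in the IGF2BP3 IP. None passed the thresholds in edgeR, but *NCAM1*, a neural adhesion molecule, was higher in every IGF2BP3 IP library (log2 0.66, edgeR adjusted p = 0.055) and passed with the block (3.6e-08) and in DESeq2 (0.0017). Leukocyte markers summed to at most 0.48 TPM with *PTPRC* and *CD3E* at 0, and the 4 keratinocyte markers to 0.66 to 0.92 TPM in the IgG IP and 0.64 to 1.42 TPM in the IGF2BP3 IP, with *KRT5* at 0.54 to 1.33 TPM, *TP63* at up to 0.19 TPM and *KRT14* and *KRT1* at 0. Of the fibroblast list *DCN* alone passed the filter (29.18 to 54.07 TPM), with the collagens *COL1A1* and *COL1A2* at or below 0.32 TPM.

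The question put to each gene was whether more of its RNA was recovered in the IGF2BP3 IP than in the IgG IP. *UNC5A* was higher in every IGF2BP3 IP library, and *UNC5C*, *SEMA4B*, *SEMA5A* and *PLXND1* were higher by 1.52 to 1.70-fold but passed the test only when same-numbered libraries were paired. That pairing takes the replicate numbers from the titles, and the libraries do not show that replicates 2 and 3 were paired by number. The other tested members did not pass both thresholds in either fit. In the paired fit some of them missed only the fold change minimum, such as *SEMA6A* (log2 0.52, edgeR adjusted p = 0.00018). The thresholds were a fold change of at least 1.5 and an adjusted p-value under 0.05 in edgeR's quasi-likelihood test over all 14507 tested genes. *UNC5A* was the 1 of the 44 tested members past them, where 1.16% of all tested genes were higher and 0.0% lower; since the set was built around it, nothing is read from that count. That count fell to 0 without IGF2BP3 IP replicate 2 or IgG IP replicate 3. The log2 fold change of *UNC5A* was 1.12 and 1.09 in those fits. Over all tested genes 0 and 7 passed as higher in them, against 169 with all libraries. Of the other 43 tested members, none passed, and the smallest adjusted p-value among them was that of *SEMA4D* (edgeR adjusted p = 0.09). By unadjusted p-values under 0.05 there were 14 higher members of these 43, against 9.72% of all tested genes, and 0 lower ones, against 3.1%. DESeq2 gave an adjusted p-value to 38 of these 43 and called none of them, with 2.22% of its tested genes higher and 0.0% lower.

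With the replicate number as a block, 4 of the 43 passed as higher (*PLXND1*, *SEMA4B*, *SEMA5A* and *UNC5C*), against 3.56% of all tested genes, and none as lower, against 0.103%. Positive log2 fold changes were held by 34 of the 43, against 48.9% of all tested genes, and the median was 0.30 on the log2 scale, against -0.01 over all tested genes and 0.00 over the 11874 tested protein-coding genes. In 28 of the 43 the IGF2BP3 IP library lay above the IgG IP library in each of the 3 same-numbered pairs, against 25.1% of all tested genes. All 3 IGF2BP3 IP libraries lay above all 3 IgG IP libraries in 13 of the 43, against 12.0%, and the reverse held in none, against 8.69%.

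The members' transcripts were longer and richer in GC than the median tested transcript, and the part of length in the fold changes was not tested. Transcripts of the tested members had a median GC content of 57.8% (36.7% to 72.6%), against 47.7% over all tested genes, and a median length of 5676 bases, against 3018. Across all tested genes GC content and log2 fold change had a Spearman correlation of 0.41, and across the members 0.15, as a description over genes that share the same 6 libraries. After a per-library correction for GC content, 33 of the 43 members still had positive values, against 44.8% of all tested genes, and the median was 0.17, against -0.03. On the log2(TPM + 1) scale the median was 0.29, against 0.11 over all tested genes.

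**Figure D2:**
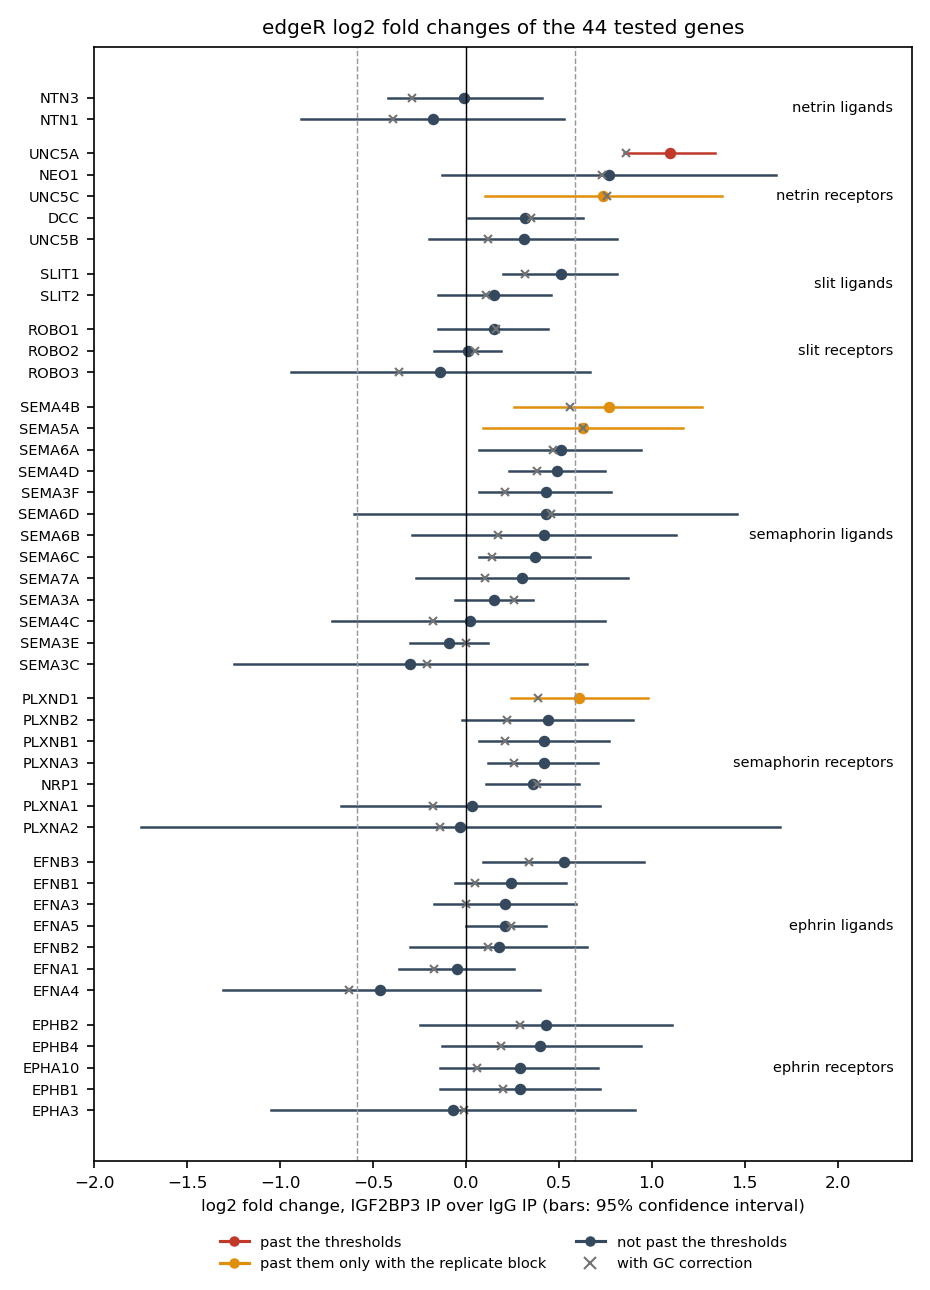
Log2 fold change in the IGF2BP3 IP over the IgG IP from edgeR for the 44 tested genes by system and role, with bars for the 95% confidence interval, crosses for the value after GC correction, and dashed lines at a 1.5-fold change. *UNC5A* stands farthest to the right at 1.10, and the 4 genes past the thresholds only with the replicate block lie between 0.61 and 0.77.

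The 5 tested netrin receptors had a median log2 fold change of 0.74, and the 4 other than *UNC5A* one of 0.53; whether this differs from the other systems was not tested. All 5 lay above 0, from 0.31 to 1.10, while both tested netrins lay at or just below 0. *UNC5A*, a repulsive netrin receptor (ENSG00000113763.12, chr5:176810519-176880898, 15 exons), had 14.1, 14.6 and 14.2 CPM in IgG IP replicates 1 to 3 and 32.2, 29.5 and 30.1 CPM in the IGF2BP3 IP. Its libraries fell into 2 groups with no overlap, each narrow beside the gap between them. That is 14.3 ± 0.273 CPM against 30.6 ± 1.38 CPM (SD, n = 3), a 2.14-fold difference, with log2 ratios of 1.19, 1.02 and 1.08 in the same-numbered pairs. The fitted log2 fold change was 1.10 and became 0.86 after GC correction. In counts the gene rested on 130 to 218 reads in the IgG IP and 370 to 391 in the IGF2BP3 IP. The neighbouring *HK3*, which overlaps its exons by 30 bases on the opposite strand, had at most 1 count in any library.

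*UNC5C*, a second UNC5 receptor, had 7.48, 4.02 and 3.79 CPM in the IgG IP and 10.4, 7.55 and 6.99 CPM in the IGF2BP3 IP. Replicate 1 was highest in both IPs, and the groups overlapped because IgG IP replicate 1 exceeded IGF2BP3 IP replicate 3, while the IGF2BP3 IP was higher within every pair. Its log2 fold change was 0.74 (SE 0.28, 95% confidence interval 0.10 to 1.38, edgeR adjusted p = 0.31), and pairing the libraries brought it to 0.0034 (edgeR, replicate block). The call under the block was also made after GC correction, at a log2 fold change of 0.77 (edgeR adjusted p = 0.0033).

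*UNC5B*, the remaining tested UNC5 receptor, had 8.46, 13.6 and 13.4 CPM in the IgG IP and 11.3, 15.0 and 18.0 CPM in the IGF2BP3 IP. Here replicate 1 was lowest in both IPs, opposite to *UNC5C*, and the groups overlapped. A log2 difference of 0.31 (SE 0.22, 95% confidence interval -0.20 to 0.81, edgeR adjusted p = 0.62) was within the spread between libraries.

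*DCC*, the attractive netrin receptor, had 36.6, 44.7 and 45.2 CPM in the IgG IP and 44.3, 60.2 and 53.6 CPM in the IGF2BP3 IP. Only the lowest IGF2BP3 IP library, replicate 1, reached into the IgG IP range. The log2 fold change was 0.32 (SE 0.14, edgeR adjusted p = 0.37); the block lowered the adjusted p to 0.005, with the fold below the 1.5-fold minimum. *NEO1*, the DCC relative neogenin, had 1.52, 2.14 and 2.42 CPM in the IgG IP and 1.68, 5.14 and 3.66 CPM in the IGF2BP3 IP. Its replicate 1 libraries were nearly equal and the difference came from replicates 2 and 3, with a log2 fold change of 0.77 (SE 0.40, 95% confidence interval -0.13 to 1.67, edgeR adjusted p = 0.47). *NTN1*, the founding netrin, had 1.30, 1.74 and 2.34 CPM in the IgG IP and 1.34, 1.66 and 1.79 CPM in the IGF2BP3 IP, a log2 difference of -0.18 (SE 0.31) that did not pass the test (edgeR adjusted p = 0.86).

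**Figure D3:**
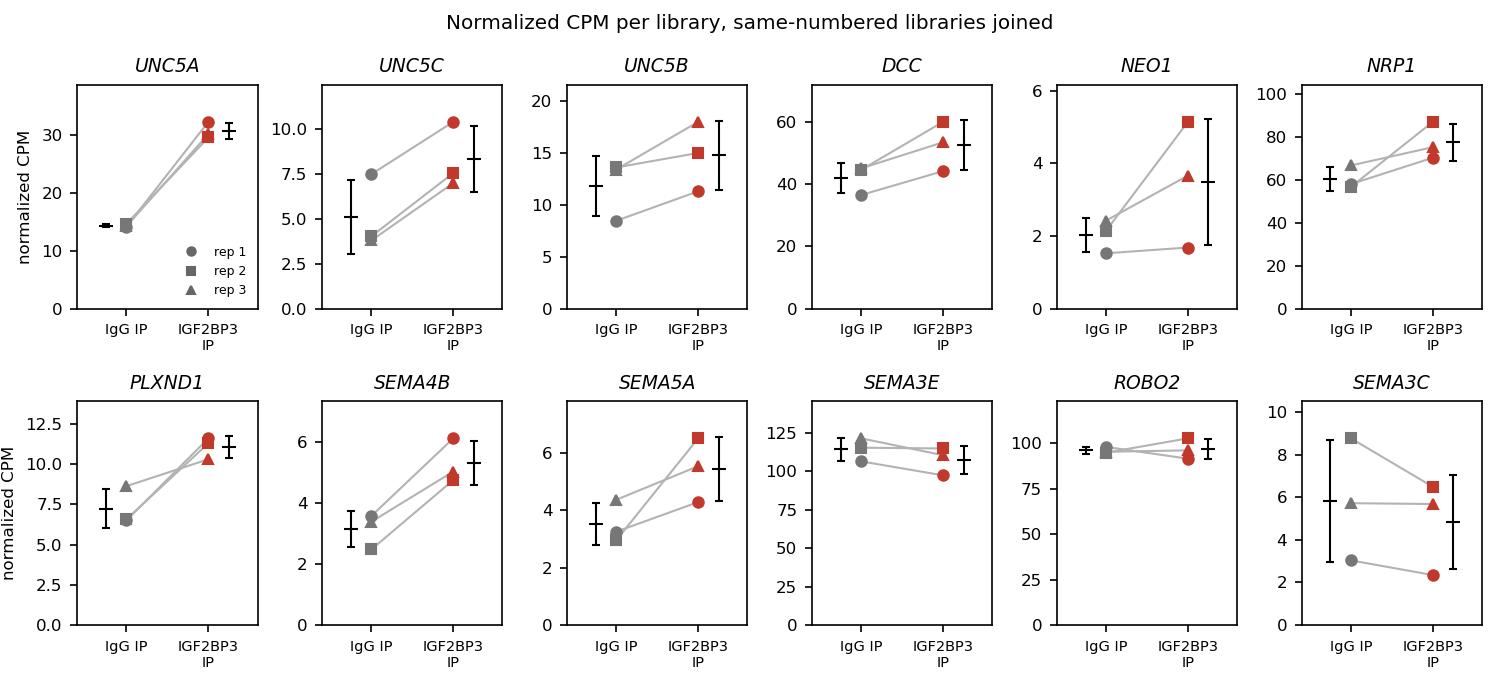
Normalized CPM (TMM) per library for 12 named members, with lines joining same-numbered libraries and black bars for the mean ± SD of 3 libraries; each panel has its own axis from 0. *UNC5A* separates fully (14.1 to 14.6 against 29.5 to 32.2 CPM), *UNC5C* is higher in the IGF2BP3 IP within each pair, and *SEMA3E* and *ROBO2* overlap between the IPs.

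Semaphorins and their receptors gave the other block calls. Of 20 semaphorins 13 were tested, 11 with positive values and a median of 0.42 on the log2 scale, and of 11 plexins and neuropilins 7 were tested, 6 with positive values and the same median. *SEMA4B*, a membrane-bound class 4 semaphorin, had 3.58, 2.48 and 3.39 CPM in the IgG IP and 6.13, 4.76 and 5.04 CPM in the IGF2BP3 IP. All IGF2BP3 IP libraries lay above all IgG IP libraries. Its log2 fold change was 0.77 (SE 0.22, 95% confidence interval 0.26 to 1.27, edgeR adjusted p = 0.17 and 0.014 with the block), and 0.56 after GC correction, where the block no longer called it (edgeR adjusted p = 0.093).

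*SEMA5A*, a semaphorin with thrombospondin repeats, had 3.25, 2.95 and 4.36 CPM in the IgG IP and 4.28, 6.50 and 5.53 CPM in the IGF2BP3 IP. The groups overlapped at IgG IP replicate 3 and IGF2BP3 IP replicate 1. A log2 fold change of 0.63 (SE 0.24, edgeR adjusted p = 0.31) reached an adjusted p of 0.04 with the block, and 0.052 with block and GC correction together.

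*PLXND1*, the plexin known as the receptor of SEMA3E, had 6.50, 6.57 and 8.63 CPM in the IgG IP and 11.6, 11.3 and 10.3 CPM in the IGF2BP3 IP, with no overlap between the groups. The log2 fold change was 0.61 (SE 0.16, 95% confidence interval 0.24 to 0.98, edgeR adjusted p = 0.14 and 0.0061 with the block); after GC correction it was 0.39, under the 1.5-fold minimum. Its ligand *SEMA3E*, the member with the highest TPM, had 106.6, 115.5 and 121.6 CPM in the IgG IP and 97.5, 115.0 and 110.6 CPM in the IGF2BP3 IP. These ranges overlapped, with a log2 difference of -0.09 (SE 0.09, 95% confidence interval -0.30 to 0.12, edgeR adjusted p = 0.74), so a 1.5-fold change in either direction lay outside the interval.

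*NRP1*, the co-receptor of class 3 semaphorins, had 57.9, 56.6 and 66.6 CPM in the IgG IP and 70.2, 86.9 and 75.1 CPM in the IGF2BP3 IP. The groups did not overlap, though the fold was small at 1.28 (log2 0.36, SE 0.11, edgeR adjusted p = 0.20 and 0.0019 with the block). *SEMA3C*, a secreted class 3 semaphorin, had 3.04, 8.78 and 5.73 CPM in the IgG IP and 2.35, 6.50 and 5.69 CPM in the IGF2BP3 IP, a log2 difference of -0.30 (SE 0.42, edgeR adjusted p = 0.82). Here the replicates differed far more than the IPs. Among the other semaphorins *SEMA4D* had the smallest adjusted p-value without the block, as given above, at a log2 fold change of 0.49 (SE 0.12). With the block its edgeR adjusted p was 0.0022, with the fold below the 1.5-fold minimum. It had 14.2, 15.9 and 14.8 CPM in the IgG IP and 20.8, 20.6 and 21.6 CPM in the IGF2BP3 IP.

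None of the slit receptors passed the test. *ROBO2* had 98.0, 94.8 and 95.3 CPM in the IgG IP and 91.5, 102.7 and 96.1 CPM in the IGF2BP3 IP, with a log2 difference of 0.01 (SE 0.08, 95% confidence interval -0.17 to 0.19, edgeR adjusted p = 0.97). *ROBO1* had 46.2, 59.4 and 59.0 CPM in the IgG IP and 54.4, 68.4 and 59.5 CPM in the IGF2BP3 IP (log2 0.15, SE 0.13, edgeR adjusted p = 0.69). Both receptors overlapped between the IPs. *ROBO3*, which modulates the other ROBO receptors, had 4.66, 3.15 and 2.98 CPM in the IgG IP and 5.04, 2.64 and 2.03 CPM in the IGF2BP3 IP (log2 -0.14, SE 0.35, edgeR adjusted p = 0.92), replicate 1 being highest in both. Of the ligands *SLIT2* had 72.0, 93.3 and 99.6 CPM in the IgG IP and 85.4, 107.0 and 102.6 CPM in the IGF2BP3 IP, overlapping groups with a log2 difference of 0.15 (SE 0.14, edgeR adjusted p = 0.69).

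*SLIT1* was the slit with the larger difference, at 20.9, 28.0 and 27.0 CPM in the IgG IP and 34.5, 39.8 and 34.0 CPM in the IGF2BP3 IP. Its groups did not overlap, and the log2 fold change was 0.51 (SE 0.14, edgeR adjusted p = 0.13 and 0.0003 with the block), below the 1.5-fold minimum. The readthrough gene *ARHGAP19-SLIT1* runs in the same direction, shares 216 exonic bases with it and drew 7 to 17 counts in a library, so the counts of *SLIT1* are uncertain to that extent.

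No ephrin or Eph receptor passed both thresholds in either edgeR fit. With the block *EFNB3* and *EPHB2* reached edgeR adjusted p-values of 0.038 and 0.037, with folds below the 1.5-fold minimum. The 7 tested ephrins had a median log2 fold change of 0.21 (-0.46 to 0.53) and the 5 tested Eph receptors 0.29 (-0.07 to 0.43). *EFNA1* had 32.2, 26.1 and 25.4 CPM in the IgG IP and 30.1, 23.9 and 26.8 CPM in the IGF2BP3 IP (log2 -0.05, SE 0.14, edgeR adjusted p = 0.93), with replicate 1 highest in both. *EFNA5* had 32.7, 35.0 and 35.6 CPM in the IgG IP and 38.3, 41.9 and 39.8 CPM in the IGF2BP3 IP (log2 0.21, SE 0.10, edgeR adjusted p = 0.39). Its groups did not overlap, while the fold was only 1.16.

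*EFNA3* had 5.85, 8.04 and 7.82 CPM in the IgG IP and 8.31, 8.61 and 8.37 CPM in the IGF2BP3 IP (log2 0.21, SE 0.17, edgeR adjusted p = 0.65). The 3 IGF2BP3 IP libraries were close to each other and just above the IgG IP, whose replicate 1 was low. *EFNA4*, the lowest value among the tested members, had 1.73, 1.14 and 2.02 CPM in the IgG IP and 0.756, 1.21 and 1.54 CPM in the IGF2BP3 IP, a log2 difference of -0.46 (SE 0.38, edgeR adjusted p = 0.66) with overlapping groups. The readthrough gene *EFNA4-EFNA3* also shares 189 exonic bases with *EFNA4*, so how reads there were assigned is uncertain.

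The difference between replicate 1 and the mean of replicates 2 and 3, on the log2(CPM + 0.5) scale, had a median over the tested members of -0.22 in the IgG IP and -0.20 in the IGF2BP3 IP, against 0.00 and -0.02 over all tested genes. In the IgG IP 10 members were at least 1.5-fold lower in replicate 1, against 7.25% of all tested genes, and in the IGF2BP3 IP 6 were, against 5.79%. *PLXNA2*, *SEMA3C*, *SEMA4C* and *SEMA6D* were so in both, against 2.67% of all tested genes. *UNC5A*, at -0.03 and 0.11, differed little between replicates, while *UNC5C* was higher in replicate 1 by 0.86 and 0.49. Whether this replicate difference had a part in the fold changes was not tested beyond the block.

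**Figure D4:**
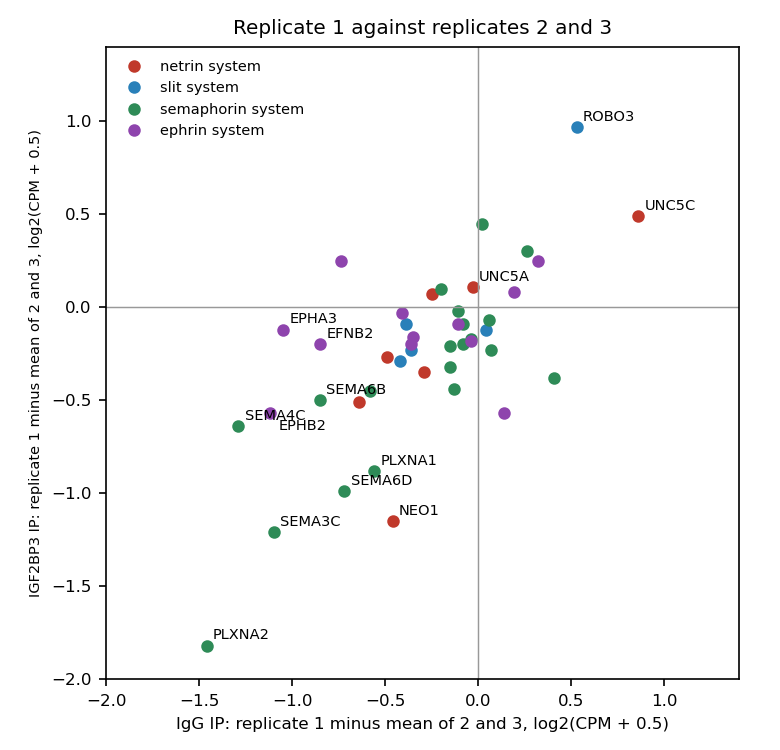
Replicate 1 minus the mean of replicates 2 and 3 for the 44 tested members, in log2(CPM + 0.5), in the IgG IP (horizontal) and in the IGF2BP3 IP (vertical), coloured by guidance system. Most points lie at or below 0 on both axes, *PLXNA2* lies lowest, and *UNC5C* and *ROBO3* lie at the upper right.

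Other genes of the pathway were taken from a list of 70 further cues, co-receptors and intracellular effectors, of which 61 were tested. The list was drawn up with earlier results of these data known, so its counts beside the shares of all tested genes are a description. Among them 2 passed the thresholds as higher, against the 1.16% of all tested genes given above, and 0 as lower in edgeR, the block and DESeq2 alike, with 9 higher and 0 lower at an unadjusted p under 0.05, against 9.72% and 3.1% of all tested genes. Values above 0 were held by 42 of 61, against 48.9%, with a median of 0.10. *DPYSL5*, a collapsin response mediator protein of the microtubule skeleton, had 50.0, 57.0 and 57.3 CPM in the IgG IP and 99.8, 134.0 and 130.7 CPM in the IGF2BP3 IP. That is no overlap between the groups and a log2 fold change of 1.15 (SE 0.12, 95% confidence interval 0.87 to 1.43, edgeR adjusted p = 0.0061). *SRGAP2*, a GTPase-activating protein that binds ROBO receptors, had 19.6, 22.4 and 20.6 CPM in the IgG IP and 33.4, 37.4 and 33.7 CPM in the IGF2BP3 IP, again without overlap (log2 0.74, SE 0.11, edgeR adjusted p = 0.02). *SRGAP2* has near-identical copies in the human genome, so how its reads were assigned is uncertain. Neither gene passed without IGF2BP3 IP replicate 2 or IgG IP replicate 3.

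The block added *TIAM1*, a Rac exchange factor, at a log2 fold change of 0.69 (edgeR adjusted p = 0.11 without and 3.2e-06 with the block), and *ABL1*, a kinase downstream of ROBO receptors, at 0.60 (0.34 and 0.00012). DESeq2, without a block, called 3 pathway genes, adding *TIAM1* (DESeq2 adjusted p = 0.016). After GC correction *TIAM1* lay at 0.64 and *ABL1* at 0.42, the latter under the 1.5-fold minimum. The actin-binding *ABLIM1* had the third highest value, 0.71, with a wide error (SE 0.58, edgeR adjusted p = 0.66). Lowest were the netrin-G ligand family member *LRRC4* (-0.42, SE 0.56), the UNC5-binding *FLRT3* (-0.24, SE 0.17) and the plexin-binding *RND1* (-0.19, SE 0.34), none of which passed the test (edgeR adjusted p = 0.81, 0.62 and 0.87). By group, values above 0 were found in 5 of 11 other cues and co-receptors, 11 of 16 kinases and adaptors, 8 of 11 cytoskeletal effectors and 4 of 6 dependence receptor and turnover partners.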

How the data were processed

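RNA from 3 IgG IP and 3 IGF2BP3 IP libraries of WaGa cells was analysed, grouped by the sample titles. Reads had been aligned by the authors to GRCh38 with STAR 2.7.9a and quantified with RSEM on GENCODE annotation. The authors deposited whole-number read counts per gene, not normalized, and TPM, which are length-scaled RSEM estimates; deposited FPKM values were not used. The program behind the counts and its use of strand are not given in the sources used here. Members and lists were chosen with earlier results of these data known.

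After filterByExpr and TMM normalization, edgeR 4.0.16 (R 4.3.3) was run on the counts in its quasi-likelihood form, condition only, with Benjamini-Hochberg adjustment over all tested genes, after the procedure was tested on simulated data. Calls needed a fold change of at least 1.5 and an adjusted p-value under 0.05. Each standard error is the log2 fold change divided by the root of its F statistic. Alternatives were DESeq2 1.42.0, limma 3.58.1 (limma-trend) on log2(TPM + 1) and log2(TPM + 0.1), RLE factors, library totals, a minimum of 10 counts in every library, no filter beyond 1 count, no fold minimum, loess correction (span 0.5) for transcript GC content, a replicate block, both together, and leaving out each library. The block takes the replicate numbers from the titles as pairs. Deviations of same-numbered libraries from their group means correlated across genes at 0.60, 0.32 and 0.26 for replicates 1, 2 and 3. The cross pairs of replicates 2 and 3 correlated at 0.31 and 0.30. These values set replicate 1 apart but do not show that replicates 2 and 3 were paired by number. Depth ran from 9758759 to 14886414 counts per library, and the common biological coefficient of variation was 13.4%. GC content, lengths, exons, coordinates and sequences came from GENCODE canonical transcripts on GRCh38 (60437 of 60655 identifiers matched; GC for 99.8% of tested genes).

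Values in every library are given for *UNC5A*, the other tested UNC5 genes and *DCC*, members called in edgeR, DESeq2 or the block fit, the 5 highest and 5 lowest log2 fold changes and the 8 highest mean TPM. *SEMA4D* and *SLIT1* were added after their values were seen. Of the further pathway genes, those called and the 3 highest and 3 lowest are named. The count of 1 further group of pathway genes and 1 leukocyte marker are not reported here.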

Additional observations from a re-analysis of the deposited data

How the results depend on the processing

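The number of members past the thresholds as higher, 1 in the edgeR fit, was 5 with the replicate block, 2 with block and GC correction together, 0 with limma-trend on log2(TPM + 1) and on log2(TPM + 0.1), where 6 and 5 members had an unadjusted p under 0.05, and 0 to 1 when each library was left out. It was 0 without IGF2BP3 IP replicate 2 or IgG IP replicate 3. These counts include *UNC5A*, around which the set was built, so they are a description. Of the other 43 tested members none passed in the edgeR fit and 4 with the block. No setting gave a lower member. Over all tested genes the 169 higher became 281 with DESeq2, 359 without the filter, 517 with the block, 82 with GC correction, 268 with GC correction and block, and 0 with limma-trend at either pseudocount (839 and 793 at an unadjusted p under 0.05), and ran from 0 to 244 with each library left out, being 0 without IGF2BP3 IP replicate 2. Lower genes, 0 in the edgeR fit, numbered 1 without the filter, 15 with the block and 35 with GC correction and block. The 2 pathway genes became 4 with the block, 0 with limma-trend at either pseudocount and 0 to 3 with each library left out, 0 again without IGF2BP3 IP replicate 2 or IgG IP replicate 3. *UNC5A* lay at 1.08 and 1.24 on the limma-trend scales and 1.06 to 1.12 with each library left out. Signs turned for *EFNA1* (0.07 and 0.08 on the 2 TPM scales, -0.13 to 0.07 with each library left out), *NTN1* (0.16 and 0.48, -0.34 to 0.05), *ROBO3* (0.32 and 0.41, -0.59 to 0.09), *SEMA3C* (0.04 and 0.08, -0.58 to 0.13), *SEMA3E* (0.23 and 0.24, and 0.00 with GC correction with and without the block) and *ROBO2* (-0.00 with RLE factors and without the filter, -0.04 to 0.05 with each library left out); none of these was called. The TPM scale moves the median of all tested genes to 0.11. Apart from the 4 members and the pathway genes *TIAM1* and *ABL1*, the replicate block changed no call among members or pathway genes. The cause of these changes was not tested. Precision is limited by 3 libraries per IP and, for members under 5 CPM, by low counts.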
